A study of Mus musculus with 6 samples.

Results

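Heterotrimeric G proteins and their RGS regulators were examined in sorted cells of the mouse Atoh1 lineage. Members were all probe sets with a single gene symbol that begins with Rgs, Gnb or Gng and a digit, or that names an alpha subunit gene of the Gi/o, Gs, Gq or Gna12 and Gna13 classes. The rule found 118 of the 45101 probe sets on the array, for 49 of the 18194 genes with a probe set of their own. No signal entered the rule, but the gene families were picked with earlier results of this contrast known, so the counts below describe the members and are no independent evidence.

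Swiss Webster embryos carried Atoh1-CreER, a tamoxifen-inducible recombinase driven from Atoh1, and the EGFP reporter RCE, in both groups alike. The E10 group was labelled by tamoxifen to the dam (4 mg per 35 g) at E10.5 and the E13 group by the same dose at E13.5. Tissue of rhombomere 1 and the isthmus was dissected from both at E14.5, and cells that carried EGFP were sorted from it. Each group had 3 samples on 1 Affymetrix array each. There was no unlabelled group, the day of labelling and the time since labelling differed together, and no label says that the 3 samples of a group are separate litters. The p-values therefore rest on the spread among 3 samples that may be technical repeats.

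A heterotrimeric G protein couples a receptor in the cell membrane to enzymes and channels inside. The receptor loads the alpha subunit with GTP, after which alpha and the paired beta and gamma subunits each act on effectors: Gi and Go inhibit adenylyl cyclase and, through beta-gamma, open or close channels, Gs and Golf stimulate adenylyl cyclase, and Gq activates phospholipase C beta. Gna12 and Gna13 form a further alpha class. RGS proteins speed up the hydrolysis of GTP by alpha subunits and so end the signal. In the brain, Go is abundant in neurons and its path carries much of presynaptic inhibition.

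Array medians lay between 97.7 and 112 units of MAS5 signal, the summary value per probe set on a linear scale. Spearman correlations over probe sets were 0.874 to 0.893 within E10, 0.938 to 0.945 within E13 and 0.845 to 0.885 between the groups. The 3′ to 5′ signal ratio of the Actb control probe sets was 17.4 to 26.2 in E10 arrays and 12.9 to 16.1 in E13 arrays, and that of Gapdh, which overlapped, 10.6 to 13.2 in E10 arrays and 9.47 to 12.1 in E13 arrays. Atoh1, whose activity drove the labelling, averaged 690.1 ± 273 units in E10 and 8642 ± 1588 units in E13 (SD, n = 3 each). Of 6 tested Atoh1 lineage markers 2 were called higher in E10 and 4 in E13. Summed over the marker lists, the 5 cycling cell markers lay between 3860 and 5111 units in E10 arrays and 35410 and 37188 units in E13 arrays, with all 5 called higher in E13. The 6 neuron markers summed to 54643 to 58521 units in E10 and 30558 to 36018 units in E13, with 3 called higher in E10 and 1, Rbfox3, in E13. Of the isthmus and rhombomere 1 markers, En2 was called higher in E13, at means of 2134 units in E10 and 3688 units in E13, while Fgf8 and Gbx2 lay at or below the median of all arrays. Of 4 astroglia and radial glia markers 3 were higher in E10 and 1 in E13, and the list summed to 8798 to 10266 units in E10 and 4394 to 6779 units in E13, with Gfap and Aqp4 at or below the medians. Of 5 oligodendrocyte lineage markers 2 were higher in E10 and 1 in E13, at sums of 3571 to 3944 units in E10 and 1535 to 2043 units in E13. The red blood cell and meninges lists each had 1 tested marker, which did not pass, at sums of 108 to 4756 units and 343 to 1487 units in E10 and 299.9 to 359 units and 225 to 434 units in E13. These shifts ran beside every result below and their part in it was not tested. In such sorted populations, fewer cells of a type and less RNA per cell cannot be told apart.

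Since the Gi and Go alpha genes did not all lie the same way, the reference promoters of 3 of them are shown first. They are from RefSeq (GRCm38.p6), 250 bases before to 50 after the gene's start, 5′ to 3′, with capitals marking CAGCTG (an E-box of the kind bound by Atoh1 and other basic helix-loop-helix factors) and GGGCGG or its reverse complement CCGCCC (a GC box). Gnao1 and Gnai1 were higher in E10 and Gnai3 in E13, but the call of Gnai3 depended on the setting, as given below.

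Gnao1, chr8:93810588-93810887, plus strand: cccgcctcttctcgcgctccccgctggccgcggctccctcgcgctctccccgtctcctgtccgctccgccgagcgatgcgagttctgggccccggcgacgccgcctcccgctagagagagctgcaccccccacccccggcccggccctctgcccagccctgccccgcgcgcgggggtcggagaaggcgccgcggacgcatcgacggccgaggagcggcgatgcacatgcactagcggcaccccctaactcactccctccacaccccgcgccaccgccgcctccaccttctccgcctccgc

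Gnai1, chr5:18360364-18360663, minus strand: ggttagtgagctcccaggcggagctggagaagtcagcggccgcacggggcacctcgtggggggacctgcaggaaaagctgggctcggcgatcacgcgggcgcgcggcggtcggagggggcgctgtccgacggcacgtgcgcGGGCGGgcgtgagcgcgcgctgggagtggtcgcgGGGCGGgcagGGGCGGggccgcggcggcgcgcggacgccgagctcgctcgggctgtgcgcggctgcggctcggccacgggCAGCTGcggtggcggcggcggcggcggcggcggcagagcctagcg

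Gnai3, chr3:108146103-108146402, minus strand: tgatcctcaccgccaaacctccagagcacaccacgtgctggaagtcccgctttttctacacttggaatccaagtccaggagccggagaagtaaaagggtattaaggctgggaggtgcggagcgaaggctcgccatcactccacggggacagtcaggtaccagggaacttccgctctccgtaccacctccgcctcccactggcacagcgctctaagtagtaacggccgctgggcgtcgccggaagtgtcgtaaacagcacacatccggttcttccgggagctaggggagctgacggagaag

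The Gnai1 window held 1 CAGCTG and 3 GGGCGG matches, and the Gnao1 and Gnai3 windows held neither. The promoter table had 50 windows for 37 of the 49 member genes. Both strands were searched, and the E-box reads the same on both. CAGCTG occurred in 6 of 22 windows of members called higher in E10, in 1 of 5 windows of members called higher in E13 and in 16.3% of all 32851 windows. The GC box occurred in 11 of 22, in 3 of 5 and in 35.7% of all windows. Over all members' windows the shares were 22.0% for CAGCTG and 54.0% for the GC box. In members that did not pass they occurred in 2 and 10 of 15 windows. Some genes had several windows. Median GC content was 62.3% in the members' windows and 52.7% in all. A match describes letters in these windows and shows no bound site.

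Of the 49 genes, 38 had a probe set above the median of its array in at least 3 of 6 arrays and were tested on log2 signals with limma, 1 probe set a gene, with Benjamini-Hochberg adjustment over all 11079 genes and a threshold of 0.05. Higher signals in E10 were called for 18 member genes, where 18.53% of all tested genes were so called. Higher signals in E13 were called for 4, where 16.85% of all tested genes were so called. The other 16 did not pass. On the level of probe sets 76 of 118 were tested, with 31 called higher in E10 (13.45% of all probe sets tested) and 3 in E13 (12.55%). The median log2 difference, E10 minus E13, was 0.86 over the 38 genes and -0.03 over all genes tested. All E10 arrays read above all E13 arrays for 22 member genes (26.00% of all tested genes) and 39 member probe sets (22.10% of all tested). All E13 arrays read above all E10 arrays for 7 member genes (26.40%) and 12 member probe sets (24.78%). Rgs4, Rgs8 and Gng8 were tested only through their E10 signals, since their E13 signals lay at or below the array medians, so they had to differ to be tested at all.

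**Figure D1:**
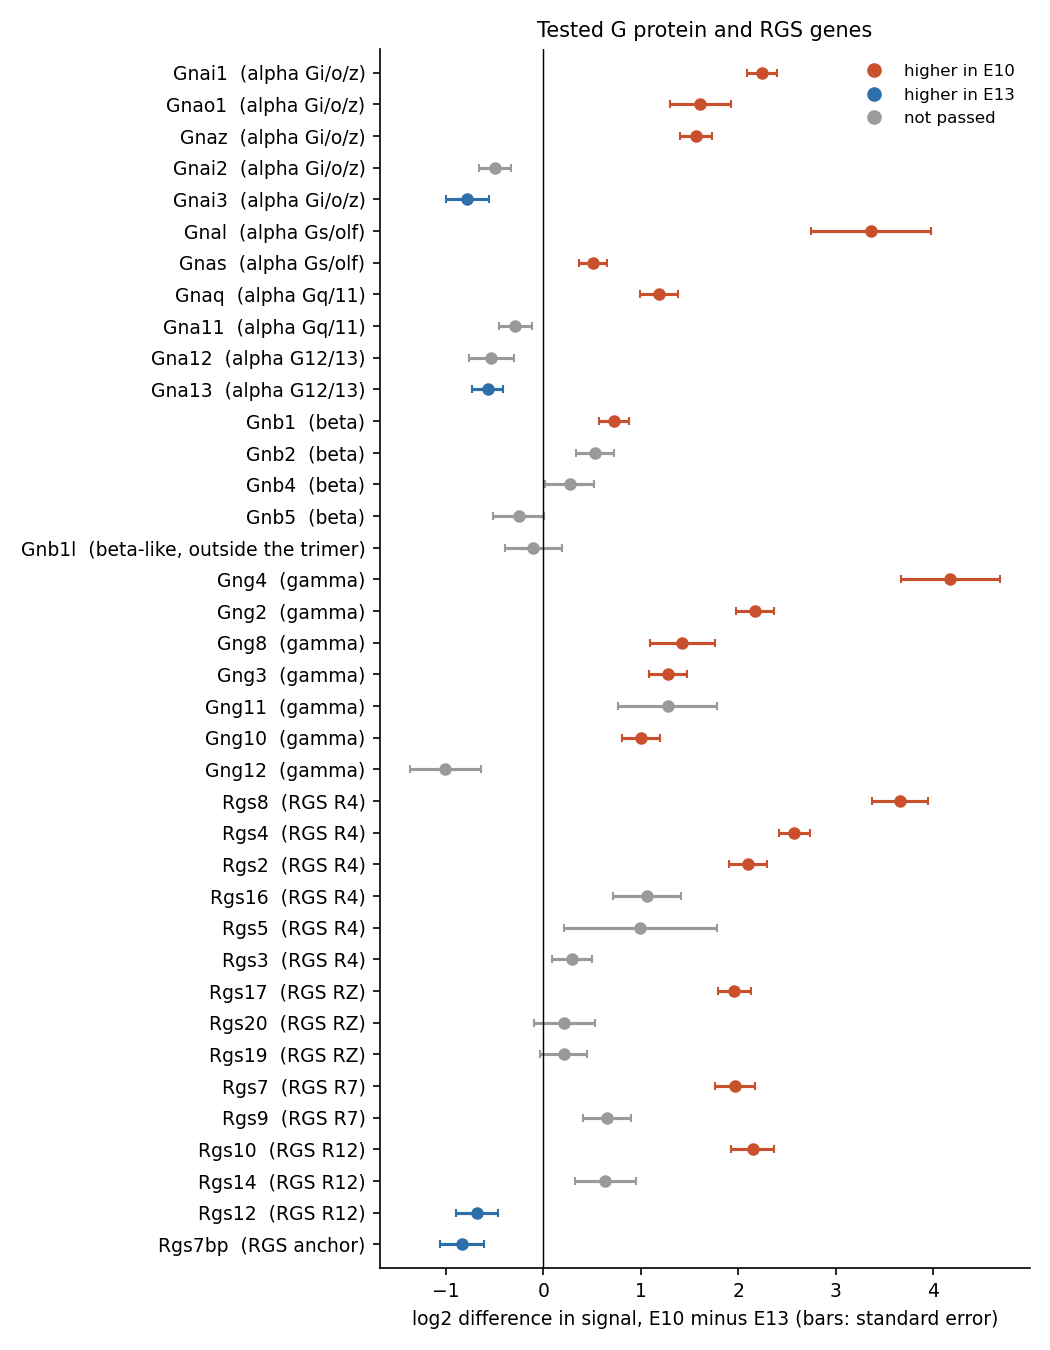
Log2 difference in signal, E10 minus E13, with limma's standard error (x axis) for the 38 tested genes (y axis, grouped by role). Colours give the call at an adjusted p of 0.05: 18 genes lie to the right as higher in E10, 4 to the left as higher in E13, and 16 in grey did not pass.

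The alpha subunits of the Gi and Go class did not all lie the same way, and the call toward E13 depended on the setting. Gnai1, which inhibits adenylyl cyclase, Gnao1, the Go subunit of neurons, and Gnaz, a relative that hydrolyses GTP slowly, were 4.74-fold, 3.05-fold and 2.96-fold higher in E10. Gnai3, a separate and widely expressed gene of the class, was 1.71-fold higher in E13, and Gnai2, another widely expressed gene, lay the same way without passing. Gnai1 read 9399.7, 10251 and 9933 units in E10 and 2099, 2224 and 1928 units in E13. The E10 arrays differed among themselves far less than from the E13 arrays, and the groups did not overlap (log2 difference 2.24 ± 0.15 SE, limma adjusted p = 3.89e-04). Gnao1 read 2963, 2094 and 2735 units in E10 and 551, 1162 and 932 units in E13 (1.61 ± 0.31, adjusted p = 0.00922, limma). Its lowest E10 array stayed above its highest E13 array. Gnaz read 1017, 817 and 874 units in E10 and 294, 332 and 288 units in E13 (1.56 ± 0.17, limma adjusted p = 0.00113), again without overlap. Gnai3 read 4119.5, 6122 and 6101 units in E10 and 10163, 7836 and 9731 units in E13 (-0.78 ± 0.22, limma adjusted p = 0.0367). All 3 E13 arrays were above all E10 arrays, and E10 replicate 1 was the lowest. Gnai2 read 3699, 4678 and 4500.2 units in E10 and 6347, 6052 and 5660.3 units in E13 (-0.49 ± 0.17, limma adjusted p = 0.0612). A second Gnai2 probe set, at 304 ± 117 units in E10 and 668 ± 112 units in E13, was called higher in E13 in the fit of all probe sets (-1.20, adjusted p = 0.0457, limma). Gnai2 passed toward E13 with the mean over its probe sets (-0.85, limma adjusted p = 0.0214). It also passed with the filter at the 70th percentile (adjusted p = 0.0397) and with trend and robust settings of eBayes (0.0151). Leaving out any 1 array brought no call of Gnai2 (adjusted p from 0.0551 to 0.173). The call of Gnai3 was lost without E10 replicate 1 (adjusted p = 0.0639) and without E13 replicates 1, 2 or 3 (0.12, 0.0602 and 0.119). In the fit of all probe sets the same Gnai3 probe set did not pass (limma adjusted p = 0.0566). A second Gnai3 probe set did not pass there either, with overlapping groups (-0.63, adjusted p = 0.14). The mean over the Gnai3 probe sets also lost the call (adjusted p = 0.0563).

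Both alpha subunits that stimulate adenylyl cyclase were called higher in E10, but the call of Gnas depended on the setting. Gnal, the Golf subunit known from olfactory neurons and striatum, was 10.3-fold higher, at 991, 1678 and 1065 units in E10 and 242, 152 and 44.6 units in E13 (3.36 ± 0.62, limma adjusted p = 0.00761). E13 replicate 3 was the lowest of the 6 arrays, and without it the fold was 6.32 (limma adjusted p = 0.00701). A second Gnal probe set differed by 3.88 the same way. Gnas, the ubiquitous Gs subunit of an imprinted locus, was 1.42-fold higher in E10, with 18582 ± 981 units in E10 and 13037 ± 221 units in E13 (SD, n = 3 each, 0.51 ± 0.15, limma adjusted p = 0.0353). The small Gnas difference lost its call without E10 replicates 2 or 3 (adjusted p = 0.0569 and 0.0678) and without E13 replicates 1, 2 or 3 (0.105, 0.105 and 0.125). The 2 other tested Gnas probe sets, at means under 300 units in both groups, did not pass. In the fit of all probe sets the bright Gnas probe set did not pass either (limma adjusted p = 0.0621). The mean over the Gnas probe sets gave 0.27 (adjusted p = 0.666). Without the probe set types _x_at and _s_at the difference was 0.47 (adjusted p = 0.459).

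In the Gq class only Gnaq passed, among Gnaq and Gna11, which both activate phospholipase C beta. Gnaq read 8237, 6504 and 5753 units in E10 and 2891, 3289 and 2733 units in E13, 2.28-fold higher in E10 (1.19 ± 0.19, limma adjusted p = 0.00502). Of its 6 tested probe sets 5 were called higher in E10. Gna11 read 1315, 1053 and 1213 units in E10 and 1522, 1336 and 1494 units in E13 (-0.29 ± 0.17, limma adjusted p = 0.224). The ranges came close without overlap, and its second probe set leaned the other way at 0.23. Gna14 and Gna15, Gq relatives of other tissues, lay at or below the array medians on all 6 arrays.

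Gna13, an alpha subunit of that further class, was 1.49-fold higher in E13, with 1753 ± 112 units in E10 and 2611 ± 262 units in E13 (SD, n = 3 each, -0.57 ± 0.16, limma adjusted p = 0.0339). Its partner Gna12 averaged 576 ± 163 units in E10 and 811 ± 33.9 units in E13 (-0.53 ± 0.23, limma adjusted p = 0.125). None of the 6 tested Gna13 probe sets passed in the fit of all probe sets, and 5 of them differed by -0.51 to -1.12 while 1 stood at -0.01. The gene's call was lost without E10 replicates 1 or 3 (adjusted p = 0.0528 and 0.0726) and without E13 replicates 1, 2 or 3 (0.0649, 0.105 and 0.133). Gna12 passed only without E10 replicate 1 (adjusted p = 0.0344).

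**Figure D2:**
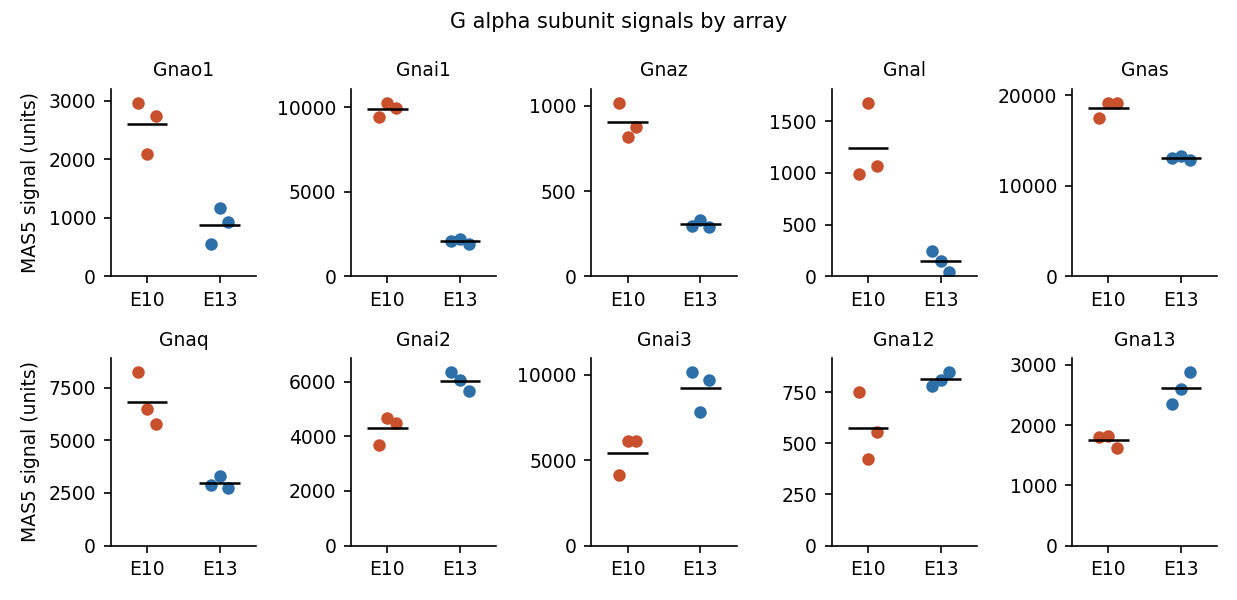
MAS5 signal in units (y axis, linear from 0, its own scale in each panel) of 10 alpha subunit genes on the 3 E10 arrays (left) and 3 E13 arrays (right), with the group mean as a line. Gnao1, Gnai1, Gnaz, Gnal, Gnas and Gnaq are higher in E10, and in Gnai2, Gnai3, Gna12 and Gna13 the E13 arrays lie above the E10 arrays.

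Of 4 tested beta subunits, which with gamma form the other arm of the signal, only Gnb1 passed. It was called higher in E10, as were 18.53% of all tested genes. Gnb1, the main beta subunit of many tissues, was 1.66-fold higher in E10, at 13336, 13423 and 15037 units in E10 and 8523, 7986 and 8719 units in E13 (0.73 ± 0.15, limma adjusted p = 0.0118). The groups were well apart on this probe set, but its other 2 tested probe sets stood at -0.13 and -0.27, and the mean over all of them gave 0.11 (adjusted p = 0.666). The call was also lost without E13 replicate 2 (adjusted p = 0.055). Gnb2, a close relative, read 10392, 7959 and 6873 units in E10 and 5808, 5709 and 5716 units in E13 (0.53 ± 0.20, limma adjusted p = 0.0798), and passed without E10 replicate 3 (adjusted p = 0.0462). Gnb4 read 1745, 1339.8 and 930.2 units in E10 and 1072, 1055 and 1096 units in E13 (0.27 ± 0.25, limma adjusted p = 0.438), with overlapping groups. Gnb5, the beta subunit that pairs with RGS proteins of the R7 subfamily, averaged 642 ± 178 units in E10 and 759.9 ± 158 units in E13 and did not pass. Gnb3, known from cone photoreceptors, lay below the medians on all arrays. Gnb1l, which the symbol rule includes although it is no subunit of the trimer, averaged 259.5 ± 88.8 units in E10 and 269.5 ± 41.0 units in E13.

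Of 7 tested gamma subunits, which anchor the trimer to the membrane by a lipid, 5 were higher in E10 and none passed toward E13. Over all tested genes the shares were 18.53% and 16.85%. Gng4 had the largest difference of all tested members, 18.1-fold. It read 2908, 5559 and 4512 units in E10 and 291, 392 and 108 units in E13 (4.18 ± 0.51, limma adjusted p = 0.0018). The lowest E10 array was several times above the highest E13 array. Another Gng4 probe set, too dim to be tested, read 108, 255 and 235 units in E10 and 3.19, 3.05 and 3.99 units in E13, far below the array medians. A further one, likewise too dim, read 79.0, 23.2 and 102 units in E10 and 31.8, 18.6 and 55.6 units in E13, with overlapping groups. Gng2 read 4822, 4668 and 3741 units in E10 and 818, 1058 and 1066 units in E13, 4.5-fold higher in E10 (2.17 ± 0.19, limma adjusted p = 7.45e-04). Its 4 tested probe sets all leaned toward E10, at 0.29 to 2.17, of which 2 passed, and their mean gave a difference of 1.28. Gng3, a gamma subunit of neurons, read 2341, 2765 and 1849 units in E10 and 979, 945 and 895 units in E13 (1.28 ± 0.20, limma adjusted p = 0.00377). Gng10, widely expressed, read 7767, 11655 and 8761 units in E10 and 4898, 4446 and 4531 units in E13 (1.00 ± 0.20, limma adjusted p = 0.0102). In Gng2, Gng3 and Gng10 the E10 and E13 ranges did not overlap. Gng8, known from olfactory and vomeronasal neurons, was dim at 147, 139 and 241 units in E10 and 42.5, 81.3 and 73.2 units in E13 (1.42 ± 0.33, limma adjusted p = 0.0182). Its E13 signals were all below the array medians, and raising such signals to the median gave a difference of 0.72 (adjusted p = 0.0452). In the fit of all probe sets the raised signals did not pass (limma adjusted p = 0.0628). The call of Gng8 was also lost without a filter (adjusted p = 0.0582) and with trend and robust settings of eBayes (0.0503).

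Gng12 and Gng11 did not pass. Gng12, found in many tissues and in glia, read 389, 149.9 and 218 units in E10 and 369, 515 and 537 units in E13 (-1.00 ± 0.37, limma adjusted p = 0.0776), with 1 E10 array inside the E13 range. Without that array, E10 replicate 1, it passed (-1.37, adjusted p = 0.0165). Gng11 read 269, 244 and 303 units in E10 and 138, 205 and 49.2 units in E13 (1.28 ± 0.51, limma adjusted p = 0.0957), and passed without E13 replicate 2 (adjusted p = 0.0476), while without E13 replicate 3 the difference was 0.68. Gng7 and Gng13 were too dim to be tested.

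RGS genes were mostly higher in E10 where they passed: 6 of 15 tested RGS and anchor genes were called higher in E10, 2 in E13 and 7 not at all. Over all tested genes 18.53% were called higher in E10 and 16.85% in E13, and 2 of 15 lies near the latter share. In the R4 subfamily of small RGS proteins, Rgs8, Rgs4 and Rgs2 passed. Rgs8, known from Purkinje cells, read 1038, 716 and 745 units in E10 and 93.7, 57.8 and 50.4 units in E13, 12.7-fold higher in E10 (3.66 ± 0.29, limma adjusted p = 5.46e-04). Every E13 array was at or below its median, and with signals raised to the median the difference was 2.99. Rgs4, a regulator of Gi and Gq signals in neurons, read 233, 266 and 250.0 units in E10 and 43.7, 37.0 and 45.1 units in E13 (2.58 ± 0.16, limma adjusted p = 3.67e-04). It was tight within both groups, but dim, and the difference was 1.27 with signals raised to the median. Rgs2, which prefers Gq, read 6578, 5774 and 4870.0 units in E10 and 1396, 1498 and 1119 units in E13, 4.29-fold higher in E10 (2.10 ± 0.20, limma adjusted p = 8.43e-04). Its 3 tested probe sets gave 1.81 to 2.13.

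The other R4 members did not pass. Rgs3 read 966, 1337 and 937 units in E10 and 935, 755 and 925 units in E13 (0.30 ± 0.21, limma adjusted p = 0.302), groups that all but touched, and a dimmer probe set leaned toward E13 at -0.38. Rgs16 averaged 399 ± 166 units in E10 and 185 ± 47.1 units in E13 (SD, n = 3 each, limma adjusted p = 0.0559) and passed without E10 replicate 3 (0.0308). Rgs1, Rgs13 and Rgs18, known from blood and immune cells, were too dim to be tested.

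Rgs5, singled out after its values were seen, varied more within the groups than any other tested member. This marker of pericytes, the contractile cells on capillaries, read 557, 153 and 540.0 units in E10 and 203, 424 and 67.4 units in E13 (1.00 ± 0.79, limma adjusted p = 0.363). Its second bright probe set repeated the order, at 642, 72.7 and 451 units in E10 and 89.2, 413 and 37.5 units in E13. The list of 6 pericyte markers summed to 1423, 902.4 and 1014 units in E10 and 636, 1154 and 383 units in E13, so that within each group the lowest array was the same for Rgs5 and for the sum. The endothelial list summed to 803, 408 and 2348 units in E10 and 262, 1358 and 267 units in E13. None of the pericyte or endothelial markers passed, and Anpep, Pecam1 and Cdh5 lay at or below the medians on all arrays. Without E13 replicate 3 the difference of Rgs5 was 0.29, without E13 replicate 2 it was 1.61 (fold 3.06) and without E10 replicate 2 it was 1.61 (fold 3.05). The part of vascular cells in these signals was not tested.

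In the RZ subfamily, Rgs17, which acts on Gz and other Gi relatives, read 2867, 2496 and 2173 units in E10 and 648, 639 and 637 units in E13, 3.89-fold higher in E10 (1.96 ± 0.17, limma adjusted p = 6.42e-04). The 3 E13 arrays were nearly equal, and a second probe set gave 2.68. Rgs19 read 547, 713 and 753 units in E10 and 737, 567 and 456 units in E13 (0.21 ± 0.24, limma adjusted p = 0.53), with the groups interleaved. Rgs20 did not pass on its brighter probe set (0.21), whereas a dimmer one, at 171 ± 18.0 units in E10 and 69.0 ± 32.0 units in E13, was called higher in E10 (1.40). That dimmer probe set was tested through its E10 signals alone, and with signals raised to the median the difference was 0.73.

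In the R7 subfamily, which acts on Go in neurons as a complex with Gnb5, Rgs7 read 1188, 1741 and 1308 units in E10 and 399.7, 361 and 313 units in E13, 3.91-fold higher in E10 (1.97 ± 0.21, limma adjusted p = 0.00111). Rgs9, known from striatum and retina, averaged 368 ± 68.3 units in E10 and 236 ± 55.5 units in E13 (limma adjusted p = 0.0819). Rgs7bp, the palmitoylated protein that anchors R7 complexes to the membrane, lay the other way: it averaged 348 ± 85.7 units in E10 and 608 ± 51.8 units in E13 (SD, n = 3 each, -0.83 ± 0.23, limma adjusted p = 0.0318). A dimmer Rgs7bp probe set read 17.2, 15.2 and 7.52 units in E10 and 235, 164 and 135 units in E13, also called higher in E13 (-3.79). Its E10 signals were far below the array medians, and raising such signals to the median gave a difference of -0.69 (limma adjusted p = 0.0625), which did not pass. The call of the brighter probe set was lost without E13 replicates 1, 2 or 3 (adjusted p = 0.0786, 0.0867 and 0.111). Rgs6, Rgs11 and Rgs9bp, the retinal anchor, were too dim to be tested.

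In the R12 subfamily, Rgs10, a small member found in neurons and in microglia, read 804, 1022 and 702 units in E10 and 155, 204 and 210.2 units in E13, 4.43-fold higher in E10 (2.15 ± 0.22, limma adjusted p = 9.94e-04). The groups were far apart. Of 7 myeloid markers 1 was tested and was higher in E10: Csf1r, at 534, 740.4 and 254 units in E10 and 104, 156 and 148 units in E13. Among E10 arrays, Csf1r and Rgs10 were both highest in replicate 2 and lowest in replicate 3. Among E13 arrays the order differed, with Csf1r highest in replicate 2 and Rgs10 in replicate 3. The whole myeloid list summed to 455 to 1349 units in E10 and 283 to 415 units in E13, with Aif1, Trem2 and Itgam at or below the medians on all arrays. The part of myeloid cells in the Rgs10 signal was not tested. Rgs12, a large member that also binds resting Gi alpha subunits, averaged 764 ± 148 units in E10 and 1213 ± 149.5 units in E13 (SD, n = 3 each, -0.68 ± 0.21, limma adjusted p = 0.0479). Its call was lost without E10 replicates 1, 2 or 3 (adjusted p = 0.0594, 0.0788 and 0.0535) and without E13 replicates 1, 2 or 3 (0.136, 0.076 and 0.155). In the fit of all probe sets neither this Rgs12 probe set (limma adjusted p = 0.0723) nor a dimmer one with overlapping groups (0.508) passed. The mean over the Rgs12 probe sets also lost the call (0.22). Rgs14, which binds Gi alpha subunits likewise, averaged 222 ± 60.4 units in E10 and 143 ± 41.5 units in E13 and did not pass.

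**Figure D3:**
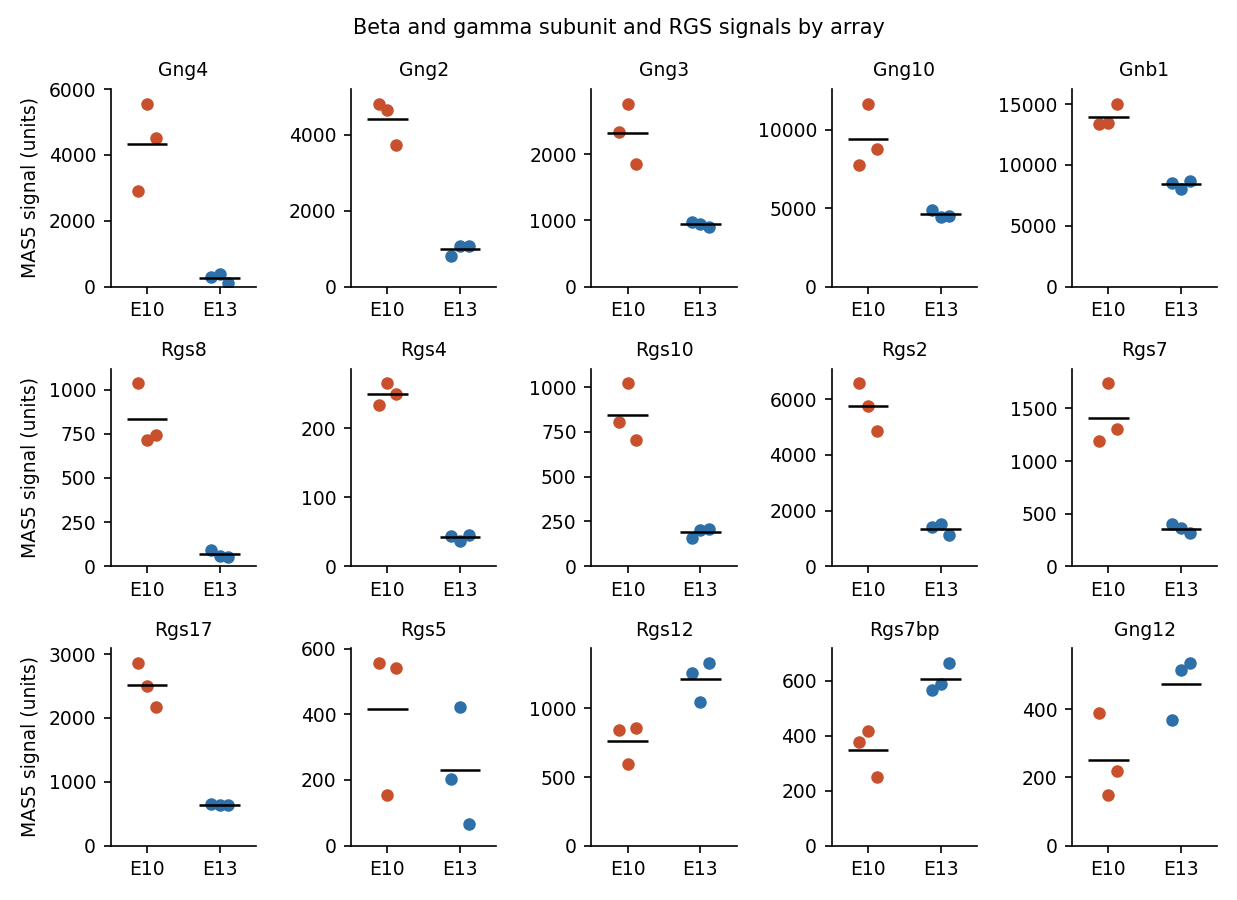
MAS5 signal in units (y axis, linear from 0, its own scale in each panel) of 15 beta, gamma and RGS genes on the 3 E10 arrays (left) and 3 E13 arrays (right), with the group mean as a line. Gng4, Rgs8 and Rgs4 are low in E13, Rgs5 is spread widely in both groups, and Rgs12 and Rgs7bp are higher in E13.

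Of 4 tested GABAergic and Purkinje cell markers 3 were called higher in E10, where 18.53% of all tested genes were so called. The list summed to 1771 to 3359 units in E10 and 444 to 716 units in E13. Its Purkinje cell marker Pcp2 was too dim to be tested, at means of 72.0 units in E10 and 77.0 units in E13, with overlapping groups. Calb1, a calcium buffer also found in Purkinje cells, averaged 1319.9 units in E10 and 124 units in E13. The part of such cells in the signals of Rgs8 and the other members was not tested.

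Probe sets of 1 gene share the gene and are no replicates. Of the 38 tested genes, 22 had at least 2 tested probe sets. None of these had calls in opposite directions. In 6, Gnai1, Gnal, Gnaz, Rgs2, Rgs4 and Rgs17, every tested probe set was called higher in E10, and in 10 none was called. Both Rgs4 probe sets and 1 of Gnai1 were tested only through their E10 signals, so their calls show no agreement, and with signals raised to the median the dimmer Rgs4 probe set did not pass (0.64, limma adjusted p = 0.0681). Of the 2 called Gng2 probe sets, the dimmer was likewise tested through E10 only (1.53, and 0.98 with signals raised to the median). The others, Gnaq, Gng2, Gnb1, Rgs20, Gnai2 and Rgs7bp, had calls on part of their probe sets. Probe sets of Gng2 lay between 0.29 and 2.17. Those of Rgs7bp lay between -3.79 and -0.34, where -3.79 rests on E10 signals below the array medians.

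**Figure D4:**
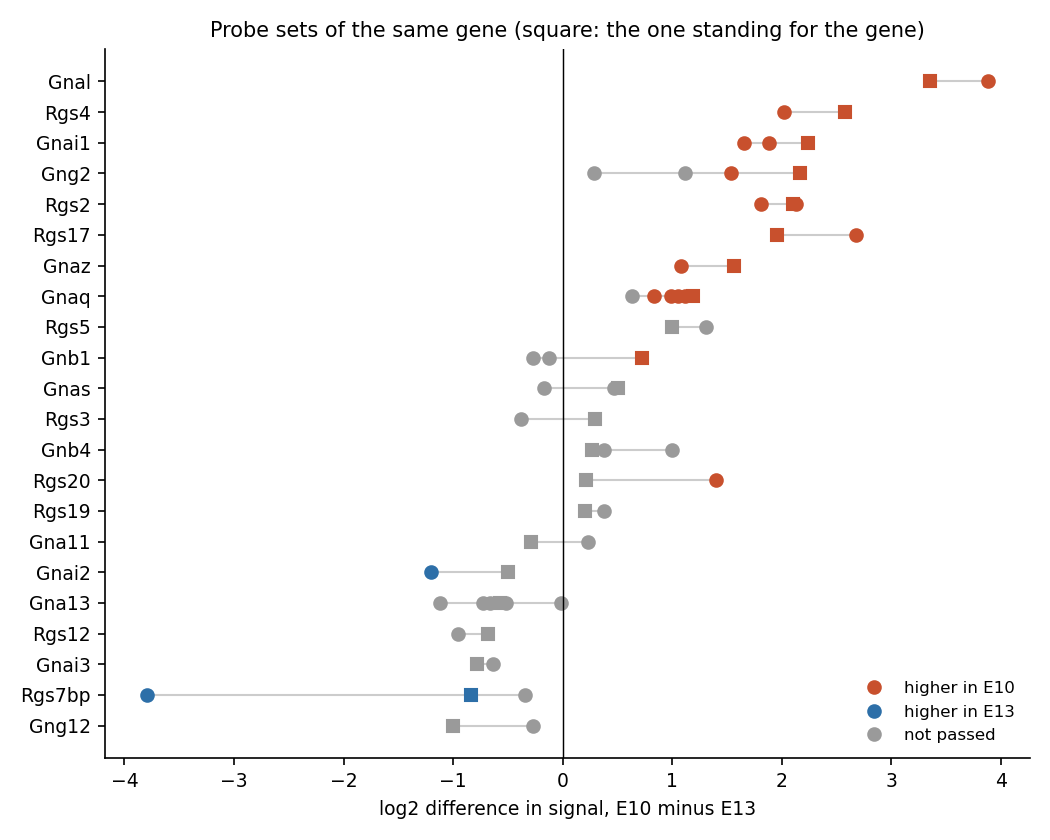
Log2 difference in signal, E10 minus E13 (x axis), of each tested probe set of the 22 genes with at least 2 of them (y axis). Squares mark the probe set that stands for the gene, colours the call in the fit of all probe sets. No gene has calls on both sides of 0. The point of Rgs7bp at -3.79 rests on E10 signals below the array medians and is -0.69 with signals raised to the median.

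Effectors downstream of the trimer are counted here against the 18.53% of all tested genes called higher in E10 and 16.85% in E13. The same shares stand beside the counts of regulators and receptors below. Of 3 tested phospholipase C beta genes 2 were called higher in E10: Plcb4, the main form of Purkinje cells, at 5124 ± 639.9 units in E10 and 1457 ± 297 units in E13 (SD, n = 3 each, 3.55-fold), and Plcb1 at 1867 ± 190.1 units in E10 and 708 ± 81.4 units in E13. Plcb3, not called, passed toward E13 without E10 replicate 1 (-1.11, limma adjusted p = 0.0443). Of 8 adenylyl cyclases 3 were called higher in E10, of which Adcy1 lost its call without E13 replicate 3 (limma adjusted p = 0.06). Adcy2, which beta-gamma stimulates together with Gs, averaged 1821 ± 575 units in E10 and 248 ± 35.7 units in E13 (SD, n = 3 each, 7.14-fold, limma adjusted p = 8.06e-04), and Adcy5, known from striatum, 659 ± 89.2 units in E10 and 291 ± 20.5 units in E13. Of 4 GIRK potassium channel genes on the array only Kcnj3 was tested, at 204 ± 49.9 units in E10 and 255 ± 43.8 units in E13, and it did not pass. The mean over its tested probe sets was lower in E10 (-1.74, limma adjusted p = 0.0455).

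Of 4 tested receptor kinases and arrestins, Arrb1 passed, at 423 ± 126 units in E10 and 180.5 ± 10.2 units in E13. Grk6, a receptor kinase, was not called (-0.39), but passed toward E13 with the mean over its probe sets (-0.69, limma adjusted p = 0.0369) and without the types _x_at and _s_at (-1.00, adjusted p = 0.012). Of 12 other tested regulators of the G protein cycle, 4 were higher in E10 and 1 in E13. Gpsm1 and Ric8a, named after their values were seen, were among the 4 and depended on the setting. The call of Gpsm1 was lost under quantile normalization and median centring (limma adjusted p = 0.0505 and 0.0659), without E10 replicate 3 (0.0639) and without E13 replicates 1, 2 or 3 (0.119, 0.119 and 0.114). The call of Ric8a was lost with the mean over its probe sets (limma adjusted p = 0.0605), without the probe set types _x_at and _s_at (0.0879) and without E13 replicates 2 or 3 (0.064 and 0.078). Rap1gap, a GTPase activator for Rap1 that binds Go and Gz, averaged 831 ± 188 units in E10 and 74.2 ± 26.1 units in E13, and Gprin2, of a family that binds activated Go, 4149.9 ± 643 units in E10 and 439 ± 8.78 units in E13 (SD, n = 3 each). These were 11.4-fold and 9.37-fold higher in E10 (limma adjusted p = 6.63e-04 and 3.46e-04). Only 1 of the 3 E13 signals of Rap1gap lay above the array median. With signals raised to the median its log2 difference was 2.97 in place of 3.52. Gpsm2, which binds Gi alpha subunits and orients the mitotic spindle, was 3.46-fold higher in E13, at 730.3 ± 144 units in E10 and 2504 ± 324 units in E13 (SD, n = 3 each, limma adjusted p = 0.00163). Gpsm2 lay on the same side as the cycling cell markers, as did all of the 16.85% of tested genes called higher in E13. A link between Gpsm2 and cycling cells was not tested.

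The list of receptors coupled mainly to Gi and Go, which also holds the atypical receptor Ackr3, moved in both directions. Of 12 tested, 7 were higher in E10 and 4, or 3 without Ackr3, in E13, and the median difference was 1.36. Grm7, a presynaptic glutamate receptor, averaged 1052 ± 157 units in E10 and 80.9 ± 86.3 units in E13 (SD, n = 3 each, 19.1-fold, limma adjusted p = 0.00565). Of its E13 signals 2 lay at or below the array medians, and with signals raised to the median its log2 difference was 3.11 in place of 4.25. Leaving out E13 replicates 2 or 3 gave folds of 34.6 and 12.3 for Grm7. Grm3, another glutamate receptor, averaged 1134 ± 128 units in E10 and 119 ± 60.1 units in E13. Higher in E13 were Sstr3, a somatostatin receptor of primary cilia, Ackr3, Cxcr4 and Sstr2, the last 2 named after their values were seen. Cxcr4, the receptor for the chemokine Cxcl12 that holds granule cell precursors under the pia, averaged 533 ± 284 units in E10 and 3221 ± 438 units in E13 (SD, n = 3 each, 6.55-fold), and Sstr2 352 ± 60.1 units in E10 and 1883 ± 219 units in E13. Sstr3 averaged 42.8 ± 23.3 units in E10 and 283 ± 5.53 units in E13 (7.65-fold, and 5.03-fold without E10 replicate 3). It was tested only through its E13 signals, since all its E10 signals lay at or below the array medians, and with signals raised to the median its log2 difference was -1.40 in place of -2.94. Ackr3, an atypical Cxcl12 receptor that works mainly through arrestin, averaged 152 ± 112 units in E10 and 715 ± 148 units in E13 (SD, n = 3 each, 6.87-fold, limma adjusted p = 0.0476). Its fold was 3.26 without E10 replicate 3, and its call was lost without E13 replicates 1, 2 or 3 (adjusted p = 0.125, 0.0951 and 0.128).

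Of 4 tested receptors coupled mainly to Gq, 2 were higher in E10: Grm5 at 2145 ± 309 units in E10 and 194 ± 87.2 units in E13 (SD, n = 3 each, 11.8-fold), and Ednrb, an endothelin receptor, at 571 ± 82.4 units in E10 and 267 ± 63.7 units in E13. F2r, a thrombin receptor, did not pass, at 12927 ± 1209.6 units in E10 and 15741 ± 2419 units in E13. Of 4 tested receptors coupled mainly to Gs only Ptger2, a prostaglandin receptor, passed, at 238 ± 112 units in E10 and 16.7 ± 27.0 units in E13 (limma adjusted p = 0.0235). All its E13 signals lay at or below the array medians, so it was tested only through E10, and with signals raised to the median its log2 difference was 1.11 in place of 5.85. Its call was lost without E10 replicates 1, 2 or 3 (adjusted p = 0.0523, 0.0601 and 0.0525) or E13 replicates 1 or 3 (0.0699 and 0.0799). Without E13 replicate 2 the unraised log2 difference was 7.66.

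**Figure D5:**
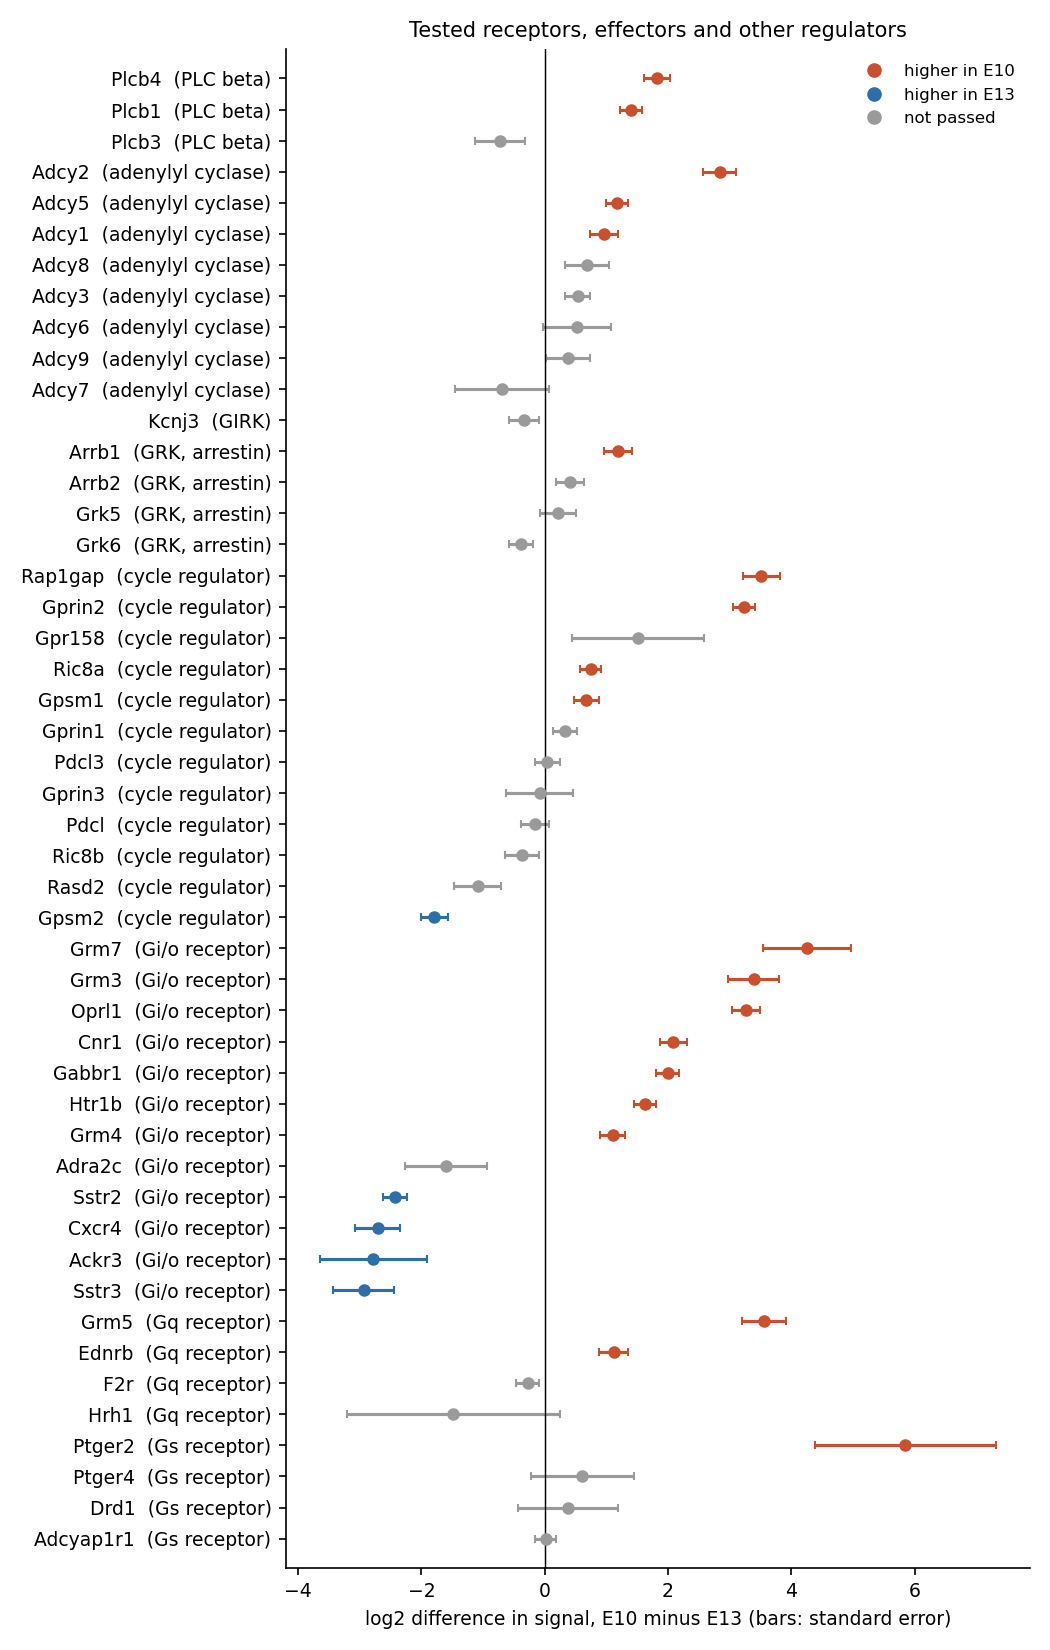
Log2 difference in signal, E10 minus E13, with limma's standard error (x axis) for the tested receptors, effectors and other regulators described above (y axis, by list). Genes of the Gi/o receptor list lie on both sides, with 7 called higher in E10 and 4, the atypical Ackr3 among them, in E13. The called effectors (phospholipase C beta and adenylyl cyclase) lie to the right.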

How the data were processed

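Gene expression of 3 E10 and 3 E13 samples was measured on Affymetrix arrays. The authors deposited linear intensities. MAS5 is named in the submitters' processing notes, with neither version nor settings given in the sources used here. Each array as deposited was scaled to a mean of 500 without its lowest and highest 2%, so a change in total RNA per cell cannot be read. MAS5 subtracts mismatch signals, so dim signals vary strongly on the log scale. The number of arrays limits the precision.

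Gene names came from the platform annotation (34958 probe sets with 1 symbol, 932 with several, 9211 with none). The 64 control probe sets were left out. Log2 signals of probe sets above their array's median in at least 3 of 6 arrays were compared, E10 minus E13, two-sided, with limma 3.58.1 (lmFit and eBayes) in R 4.3.3, adjusted by Benjamini-Hochberg (threshold 0.05). Each gene was represented by whichever tested probe set had the greatest mean log2 signal. Folds are the unlogged difference of log2 means. The test was tried on simulated data.

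The members, lists and rules were chosen with earlier results of these data known. Signals of all arrays are given for up to 6 called genes a role and the 2 brightest that did not pass, and, of each pathway list, up to 2 called genes in each direction. Other settings tried were a block for the replicate number, quantile normalization, median centring, an offset of 5.97 units, a floor at the array median, filtering at the 70th percentile or not at all, trend and robust settings of eBayes, a threshold of 0.01, averaging all tested probe sets of a gene, excluding the probe set types _x_at and _s_at, and leaving out each array with the same probe sets tested. The result of 1 pathway list is not reported here.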

Additional observations from a re-analysis of the deposited data

How the results depend on the processing

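Of 22 member genes called, 14 kept their call and direction in all the alternatives in which they were tested: Gnai1, Gnao1, Gnaz, Gnal, Gnaq, Gng4, Gng2, Gng3, Rgs8, Rgs4, Rgs2, Rgs10, Rgs7 and Rgs17, all higher in E10. Of 38 tested genes, 35 kept their direction throughout, the exceptions being Gnb1l, Rgs3 and Rgs20, none of them called. The 4 genes higher in E13 depended on the setting. Their number was 0 with the replicate block, 0 without a filter and 0 at a threshold of 0.01, and 0 to 3 with 1 array left out. Genes higher in E10 numbered 17 to 19 with 1 array left out and 14 to 20 in the other alternatives. Probe sets higher in E13 numbered 1 with the replicate block, 5 with the floor at the array median, 1 without a filter, 6 with the filter at the 70th percentile, 8 with trend and robust settings, 1 at a threshold of 0.01, and 1 to 5 with 1 array left out. Probe sets higher in E10 numbered 18 without a filter, 16 at a threshold of 0.01 and 20 to 31 with 1 array left out, the fewest without E13 replicate 3. Genes higher in E13 numbered 2 without E10 replicate 3 and 0 without any of the 3 E13 arrays. The cause of these moves was not tested. Deviations of same-numbered E10 and E13 arrays from their group means correlated at -0.0291, -0.0747 and -0.00558. Those of other pairs correlated at -0.0415 to 0.062. The labels do not say what a replicate number marks, and with 3 arrays a group these correlations cannot tell. Gnas and Gnai3 lost their calls under median centring (limma adjusted p = 0.1 and 0.0513), which moved the median of all probe sets by less than 0.1. Hrh1, not called, ranged from -2.58 to 0.71 with 1 array left out and was positive only without E10 replicate 3 (limma adjusted p = 0.0318), against -1.48 with all arrays. Low signal limits Rgs4, Rgs8 and Gng8, whose E13 signals were not above the array medians.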
